A study of Mus musculus with 12 samples.

Results

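The class 3 semaphorins Sema3a, Sema3b, Sema3c, Sema3d, Sema3e, Sema3f and Sema3g, the neuropilins Nrp1 and Nrp2 and the plexin Plxnd1 were followed in 3T3-L1 cells during adipogenic induction. These 10 genes were taken by name from the 39423 genes of the deposited count and FPKM tables. They were chosen by their levels in the 4 conditions of the study, with earlier results of these data known, so their levels and differences are given as a description and carry no p-values.

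3T3-L1 is a mouse embryonic fibroblast line that is committed to become adipocytes. All cells were induced with DMI (labelled MDI), a cocktail of dexamethasone, 3-isobutyl-1-methylxanthine and insulin, for 24 h (day 1) or 72 h (day 3). At each time 3 libraries came from cells given nontargeting siRNA (siCtrl, labelled NC) and 3 from cells given siRNA against Prmt1 (siPRMT1, labelled KD). Prmt1 encodes the main enzyme that places asymmetric dimethylation on arginines of histone H4 and many other proteins. All groups carried a transfection, no uninduced cells were among the 12 libraries, and the labels do not say which siRNA against Prmt1 was used or whether the replicates were separate cultures.

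Class 3 semaphorins are secreted proteins first known for turning growing axons away, and they also act on vessels, immune cells and mesenchymal cells. Most of them bind a neuropilin, which has a short cytoplasmic tail and passes the signal through an A-type plexin or through plexin D1. Sema3e differs in that it can bind plexin D1 directly. Neuropilins also bind vascular endothelial growth factors (VEGFs), and furin-type proteases cut the semaphorins and set their activity.

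The knockdown was seen in every library. Prmt1 stood at 82.86, 83.40 and 91.28 FPKM (fragments scaled to gene length and library total) in siCtrl at day 1 and at 43.84, 38.62 and 41.36 FPKM in siPRMT1. Day 3 levels of Prmt1 were 110.62, 120.40 and 140.25 FPKM in siCtrl and 62.02, 71.66 and 68.51 FPKM in siPRMT1. The log2 fold change was -1.11 (SE 0.08, edgeR adjusted p = 0.000985) at day 1 and -0.88 (SE 0.09, edgeR adjusted p = 1.22e-05) at day 3. Libraries held from 15116462 to 42357137 counts. The siCtrl library labelled replicate 3 at day 1 stood apart: the chi-square per gene against the other siCtrl libraries of that day was 50.6 and 30.8, while those 2 differed by 5.30 and pairs in the other conditions by 4.14 to 15.8. Fold changes of the members that rest on it are given with and without it.

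The cells carried the markers of their label. The summed FPKM of 8 adipocyte markers ran from 144.90 to 150.22 in siCtrl and from 109.70 to 123.61 in siPRMT1 at day 1, and from 2287 to 2480 in siCtrl and from 1762 to 1993 in siPRMT1 at day 3. The sum of 8 preadipocyte or fibroblast markers ran from 1354 to 1404 (siCtrl) and from 1279 to 1308 (siPRMT1) at day 1, then from 485 to 518 (siCtrl) and from 596 to 676 (siPRMT1) at day 3. At day 3 the adipocyte sum was thus lower, and the preadipocyte sum higher, in every siPRMT1 library than in any siCtrl library. Of the single markers at day 3, all 8 adipocyte genes had a negative and 7 of 8 preadipocyte genes a positive log2 fold change in siPRMT1. Called were 3 adipocyte genes as lower and 2 preadipocyte genes as higher, beside 3.80% and 2.84% of all genes. Some markers, such as Fabp4 and Dlk1, overlapped between the siRNAs. In bulk RNA, fewer cells of a type and less RNA per cell cannot be told apart, and the part of this shift in the values below was not tested. Vessel, mural, blood and nerve cells also use semaphorins. The sum of 8 endothelial markers was at most 1.09 FPKM in any library and none of them reached a mean of 1 FPKM in any condition, with Tie1 at 0 counts in 3 of the 4. Among 8 macrophage markers 2 reached a mean of 1 FPKM in each condition, Ptprc was at 0 counts throughout, and the list summed to 4.04 to 7.10 FPKM. Among 8 neuron or glia markers 1 reached a mean of 1 FPKM, with sums of 1.76 to 7.02 FPKM. The 5 mural markers, with Kcnj8 at 0 counts throughout, summed to 2.11 to 2.98 FPKM in siCtrl and 3.39 to 3.65 FPKM in siPRMT1 at day 1. At day 3 they summed to 0.83 to 0.93 FPKM in siCtrl and 1.05 to 1.26 FPKM in siPRMT1. Under both siRNAs 1 of them reached a mean of 1 FPKM at day 1 and 0 did at day 3. Of 2 fitted at day 3, 1 was called higher and 1 lower in siPRMT1, beside 2.84% and 3.80% of all genes.

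The sequences upstream of 3 ligand genes are shown because they are the ligands with the largest difference between the siRNAs at day 3: Sema3g was lower, and Sema3a and Sema3c were higher, in siPRMT1. Each is the stretch of 250 bases before a RefSeq transcription start (GRCm38.p6), read on the strand of the gene, with matches to the motifs searched in capitals.
Sema3g, chr14:31217623-31217872, plus strand: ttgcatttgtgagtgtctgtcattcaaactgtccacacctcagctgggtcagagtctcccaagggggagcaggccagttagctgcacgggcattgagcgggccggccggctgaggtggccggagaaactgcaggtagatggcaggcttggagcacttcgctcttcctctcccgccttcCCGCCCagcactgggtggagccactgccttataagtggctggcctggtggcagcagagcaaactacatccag
Sema3c, chr5:17574566-17574815, plus strand: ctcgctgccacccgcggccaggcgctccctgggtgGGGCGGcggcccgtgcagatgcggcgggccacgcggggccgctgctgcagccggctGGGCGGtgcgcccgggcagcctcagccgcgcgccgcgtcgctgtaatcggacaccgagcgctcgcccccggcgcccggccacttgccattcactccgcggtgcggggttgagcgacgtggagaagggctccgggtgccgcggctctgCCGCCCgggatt
Sema3a, chr5:13396534-13396783, plus strand: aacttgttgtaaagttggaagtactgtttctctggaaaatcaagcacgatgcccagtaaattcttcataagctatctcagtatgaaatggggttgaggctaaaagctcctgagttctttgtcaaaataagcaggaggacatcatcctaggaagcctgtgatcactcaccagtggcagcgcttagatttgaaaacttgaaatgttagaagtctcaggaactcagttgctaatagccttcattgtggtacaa
RefSeq entries were found for 8 of the 10 genes. Motifs were searched on both strands. The TATA box was spelled TATAAA, while the CCAAT box has its letters in its name. The GC box was spelled GGGCGG, and the E-box was spelled CACGTG. The core of a C/EBP site was spelled TTGCNNCAA and the cAMP response element TGACGTCA. The half-site of nuclear receptors was spelled AGGTCA, and that of the glucocorticoid receptor was spelled AGAACA. All capitals in these 3 sequences mark the GC box, which reads CCGCCC on the opposite strand. It had 1 match before Sema3g, 3 before Sema3c and 0 before Sema3a, and 32.7% of the 32851 RefSeq windows of this length held at least 1. The other motifs had no match in these windows, and they occur in 12.4% (TATA box), 33.9% (CCAAT box), 6.02% (E-box), 1.74% (C/EBP core), 14.0% (nuclear receptor half-site), 16.1% (glucocorticoid half-site) and 1.55% (cAMP element) of all windows. The sequences differ in base composition: GC content was 78.4% before Sema3c with 39 CpG, 60.4% before Sema3g with 8 CpG and 40.8% before Sema3a with 2 CpG, against a median of 52.4% and 6 CpG over all windows. The Sema3a window lies before a start inside the gene as the count table models it (chr5:13125370-13606234). Sema3c (chr5:17574816-17730268) and Sema3g (chr14:31217873-31230352) begin where their windows end. These matches are descriptions of letters, and binding was not measured.

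The most marked member was Sema3g, a ligand best known from endothelial cells and adipose tissue. At day 1 Sema3g stood at 2.90, 3.26 and 3.67 FPKM in siCtrl and at 2.89, 2.62 and 2.75 FPKM in siPRMT1. At day 3 it stood at 20.01, 20.76 and 20.08 FPKM in siCtrl and at 8.03, 7.77 and 8.78 FPKM in siPRMT1. The day 3 libraries lay above the day 1 libraries under both siRNAs, and no siPRMT1 library reached a siCtrl library of its day, although the day 1 gap was narrow (2.89 against 2.90 FPKM). From day 1 to day 3 its mean went from 3.28 ± 0.39 to 20.3 ± 0.41 FPKM in siCtrl and from 2.75 ± 0.14 to 8.19 ± 0.52 FPKM in siPRMT1 (SD, n = 3), a log2 fold change of 2.57 (SE 0.11) and 1.56 (SE 0.08). Against siCtrl, Sema3g in siPRMT1 differed by a log2 fold change of -0.30 (SE 0.11) at day 1 and -1.31 (SE 0.08) at day 3, and the difference between those effects was -0.9996 (SE 0.13). Without siCtrl replicate 3 the day 1 value was -0.21, the difference -1.12 and the siCtrl change over time 2.65. The endothelial marker Cdh5 averaged 0.05 FPKM in siCtrl and 0.04 in siPRMT1 at day 1, then 0.25 and 0.11 FPKM at day 3. Pecam1, another, averaged 0.09 and 0.12 FPKM at day 1, then 0.55 and 0.41 FPKM. Both rose over time in siCtrl, and both also averaged higher at day 3 than at day 1 in siPRMT1. At day 3 both averaged lower in siPRMT1 than in siCtrl, and 1 of the 2 was called lower, beside 3.80% of all genes. The sum of all 8 endothelial markers overlapped between the siRNAs at that day. It ran from 0.84 to 1.04 FPKM in siCtrl and from 0.78 to 1.09 FPKM in siPRMT1. The part of these markers in the Sema3g values was not tested.

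Sema3c, a ligand known from heart outflow tract and vessel development, was the most abundant semaphorin of the class at day 1. It stood at 24.49, 22.73 and 17.44 FPKM in siCtrl and at 26.57, 28.68 and 26.22 FPKM in siPRMT1 at day 1. By day 3 the siCtrl libraries had 7.79, 6.53 and 6.39 FPKM and the siPRMT1 libraries had 10.20, 10.50 and 9.24 FPKM. Its course was opposite to that of Sema3g: lower at day 3 than at day 1, and higher in siPRMT1 than in siCtrl at both days without overlap. The log2 fold change of siPRMT1 against siCtrl was 0.28 (SE 0.12) at day 1 and 0.53 (SE 0.09) at day 3. Without siCtrl replicate 3, which held the lowest Sema3c level of day 1, the day 1 value was 0.14 (SE 0.06). From day 1 to day 3 Sema3c changed by -1.71 (SE 0.14; -1.85 without siCtrl replicate 3) in siCtrl and -1.46 (SE 0.07) in siPRMT1 on the log2 scale.

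Sema3a, the founding axon repellent, followed Sema3c at a lower level. The siCtrl libraries of day 1 had 4.48, 4.30 and 3.04 FPKM, and those of siPRMT1 had 5.19, 5.63 and 4.88 FPKM. The day 3 libraries had 1.93, 1.78 and 1.54 FPKM with siCtrl and 2.52, 2.94 and 2.35 FPKM with siPRMT1. The siPRMT1 libraries again lay above the siCtrl libraries at both days, and day 3 lay below day 1 under both siRNAs (-1.24, SE 0.15, in siCtrl, -1.41 without siCtrl replicate 3 of day 1, and -1.02, SE 0.09, in siPRMT1). Its log2 fold change of siPRMT1 against siCtrl was 0.36 (SE 0.15) at day 1, 0.20 (SE 0.07) without siCtrl replicate 3, and 0.57 (SE 0.11) at day 3. On the log2(FPKM + 1) scale with limma the day 3 value of Sema3a was 0.39, as the pseudocount shrinks the differences of genes at low FPKM.

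**Figure D1:**
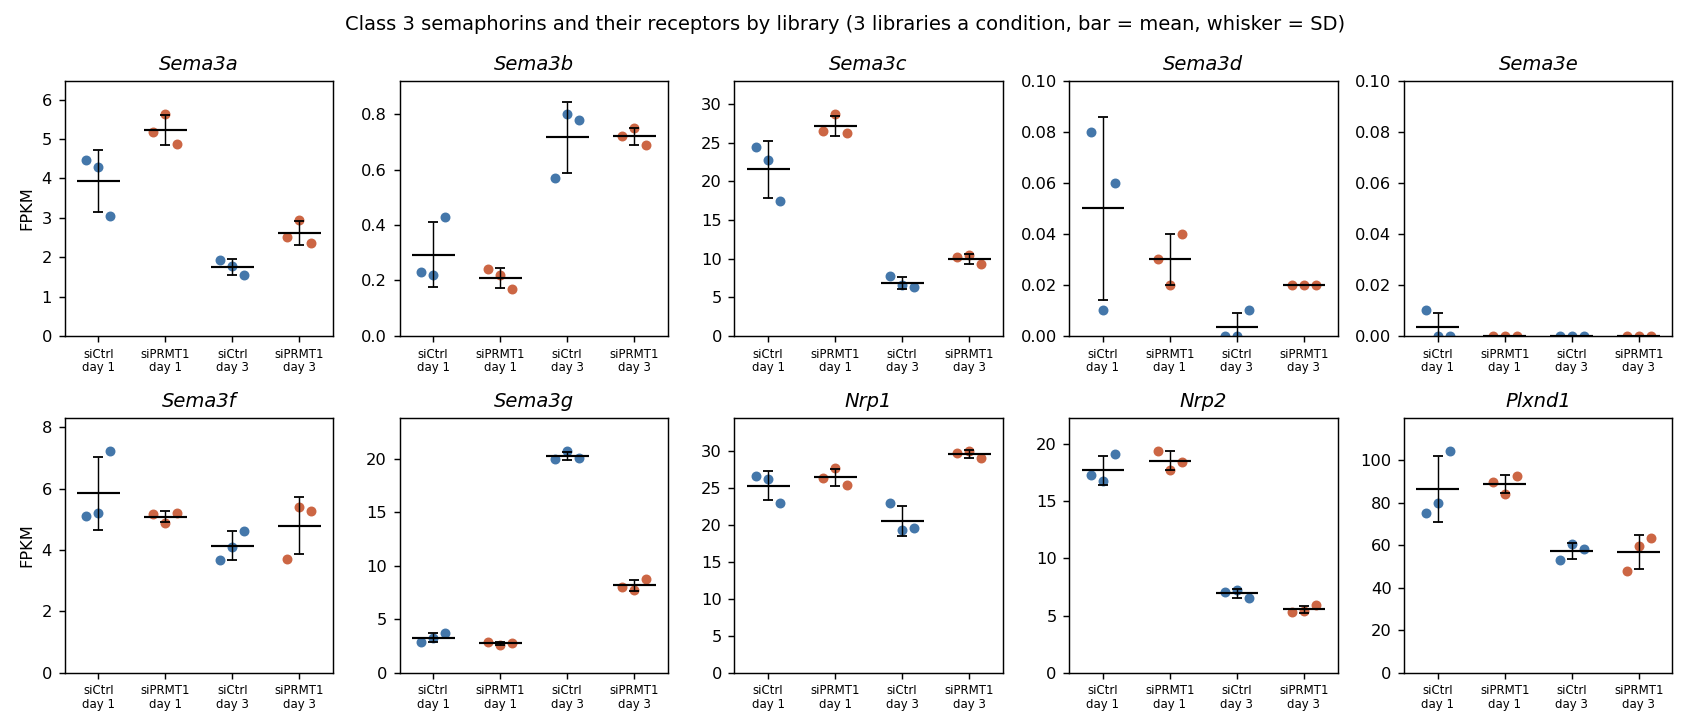
FPKM of the 10 genes in each library, in 1 panel a gene with its own axis from 0. Points are libraries (blue siCtrl, orange siPRMT1), horizontal bars are means and whiskers SDs of 3 libraries. At day 3 Sema3g was at 20.01 FPKM or more in the siCtrl libraries and at most 8.78 FPKM in the siPRMT1 libraries. Sema3a, Sema3c and Nrp1 were higher in siPRMT1 than in siCtrl at day 3.

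Sema3f signals chiefly through neuropilin 2. It stood at 5.10, 5.22 and 7.23 FPKM in siCtrl and at 5.17, 4.88 and 5.22 FPKM in siPRMT1 at day 1, and at 3.68, 4.10 and 4.62 FPKM in siCtrl and at 3.71, 5.40 and 5.28 FPKM in siPRMT1 at day 3. The siRNA groups overlapped in FPKM at both days, and in CPM after TMM scaling the siPRMT1 libraries of day 1 lay below those of siCtrl. Its log2 fold change of siPRMT1 against siCtrl was -0.25 (SE 0.13) at day 1 and 0.21 (SE 0.13) at day 3, and the first was -0.08 without siCtrl replicate 3, the library with the highest Sema3f level. In siCtrl Sema3f was lower at day 3 by a log2 fold change of -0.57 (SE 0.16), or -0.39 without that library. The value in siPRMT1 was -0.09 (SE 0.11).

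The other ligands were rare. Sema3b, known as a tumour suppressor in lung, had 18 to 43 counts in a library at day 1 and 51 to 88 at day 3. It stood at 0.23, 0.22 and 0.43 FPKM in siCtrl and 0.24, 0.22 and 0.17 FPKM in siPRMT1 at day 1. Its day 3 values were 0.57, 0.80 and 0.78 FPKM in siCtrl and 0.72, 0.75 and 0.69 FPKM in siPRMT1. Sema3b was thus, like Sema3g, higher at day 3 under both siRNAs (log2 fold change 1.25, SE 0.28, and 1.76, SE 0.18), while its siRNA groups overlapped at both days (-0.48, SE 0.31, at day 1 and 0.01, SE 0.16, at day 3). Without siCtrl replicate 3 of day 1, its highest library of that day, the siCtrl change over time was 1.59 and the siRNA difference at day 1 was -0.15. Sema3d had 22, 1 and 9 counts in siCtrl and 5, 3 and 6 in siPRMT1 at day 1, then 0, 0 and 2 in siCtrl and 3 in each siPRMT1 library at day 3. Sema3e, the direct ligand of plexin D1, had 2 counts in siCtrl replicate 1 at day 1 and 0 in each of the other libraries. With 0 counts seen, as many as 3 remain possible from counting error, or 0.0163 to 0.0289 FPKM of Sema3e in those libraries. Neither gene passed the filter on low counts, so 8 of the 10 members were fitted. Without that filter Sema3d was past both thresholds of the study as lower at day 3 in siCtrl, where its counts overlapped between the days.

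Because the ligands moved in opposite directions, the make-up of the class turned over more than its sum. The summed FPKM of the 7 ligands was 35.0 ± 2.79 in siCtrl and 40.5 ± 1.42 in siPRMT1 at day 1, then 33.8 ± 0.32 in siCtrl against 26.3 ± 1.09 in siPRMT1 at day 3 (SD, n = 3). Sema3c made up 61.3% ± 5.82 of that sum in siCtrl and 67.1% (66.3% to 68.2%) in siPRMT1 at day 1, with Sema3f second in siCtrl at 17.0% and Sema3g at 9.47%. At day 3 in siCtrl the order had turned, with Sema3g at 60.0% (58.9% to 61.1%) and Sema3c at 20.4% ± 2.17. At day 3 in siPRMT1 Sema3c was still ahead at 38.0% ± 2.73, and Sema3g reached 31.2% ± 2.53. The ratio of Sema3g to Sema3c was 0.157 in siCtrl and 0.102 in siPRMT1 at day 1, then 2.96 ± 0.34 in siCtrl against 0.826 ± 0.11 in siPRMT1 at day 3. It was above 1 in every siCtrl library of day 3, with 2.57 as the lowest, and below 1 in every siPRMT1 library, with 0.950 as the highest.

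**Figure D2:**
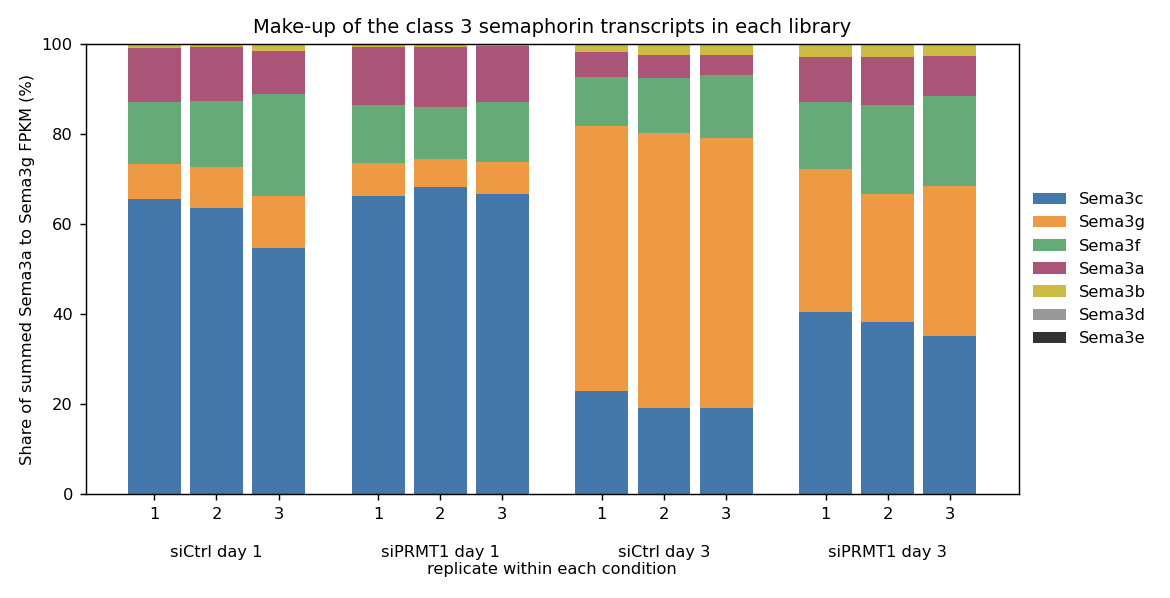
Share of each class 3 semaphorin in the summed FPKM of the 7 ligands (%), 1 bar a library. Sema3c made up 54.7% to 68.2% of the sum at day 1, Sema3g 58.9% to 61.1% in siCtrl at day 3, and Sema3g 28.4% to 33.3% in siPRMT1 at day 3.

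Of the neuropilins, Nrp1, the one preferred by Sema3a, was the more abundant. It stood at 26.55, 26.26 and 23.00 FPKM in siCtrl and at 26.35, 27.65 and 25.36 FPKM in siPRMT1 at day 1. Nrp1 then stood at 22.92, 19.24 and 19.54 FPKM in siCtrl of day 3 and at 29.75, 29.99 and 29.01 FPKM in siPRMT1. The siRNA groups overlapped at day 1 and were apart at day 3, where the mean was 20.6 ± 2.04 FPKM in siCtrl and 29.6 ± 0.51 FPKM in siPRMT1 (SD, n = 3). The log2 fold change of siPRMT1 against siCtrl was 0.02 (SE 0.08) at day 1 and 0.52 (SE 0.07) at day 3, a difference between the days of 0.52 (SE 0.11). From day 1 to day 3 Nrp1 moved by -0.37 (SE 0.09) in siCtrl and 0.15 (SE 0.06) in siPRMT1 on the log2 scale. Without siCtrl replicate 3 of day 1 the day 1 value was -0.05, the difference between the days 0.55 and the siCtrl change over time -0.44. Exons of Nrp1 (chr8:128358283-128505476) overlap in part those of Gm32643 on the opposite strand, which had 381 counts over the 12 libraries against 49808 for Nrp1. The strand setting of the counting is not given in the sources used here.

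Nrp2, the partner of Sema3f and Sema3g among the neuropilins, went the other way. It stood at 17.27, 16.75 and 19.11 FPKM in siCtrl and at 19.41, 17.77 and 18.45 FPKM in siPRMT1 at day 1. In the day 3 libraries Nrp2 stood at 7.05, 7.27 and 6.52 FPKM in siCtrl and at 5.30, 5.43 and 5.89 FPKM in siPRMT1. Nrp2 was lower at day 3 under both siRNAs, by log2 fold changes of -1.42 (SE 0.09) and -1.76 (SE 0.07), and at day 3 no siPRMT1 library reached the lowest siCtrl library. The value of siPRMT1 against siCtrl was 0.02 (SE 0.07) at day 1 and -0.33 (SE 0.08) at day 3. Without siCtrl replicate 3 of day 1 the day 1 value was 0.07 and the siCtrl change over time -1.37. The ratio of Nrp1 to Nrp2 was accordingly 1.44 ± 0.20 in siCtrl and 1.43 ± 0.11 in siPRMT1 at day 1, then 2.96 ± 0.30 in siCtrl against 5.35 ± 0.37 in siPRMT1 at day 3. In siCtrl at day 1 replicates 1 and 2 had 1.54 and 1.57, and replicate 3 was the lowest. The lowest siPRMT1 ratio of day 3, 4.93, was above the highest siCtrl ratio, 3.25.

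**Figure D3:**
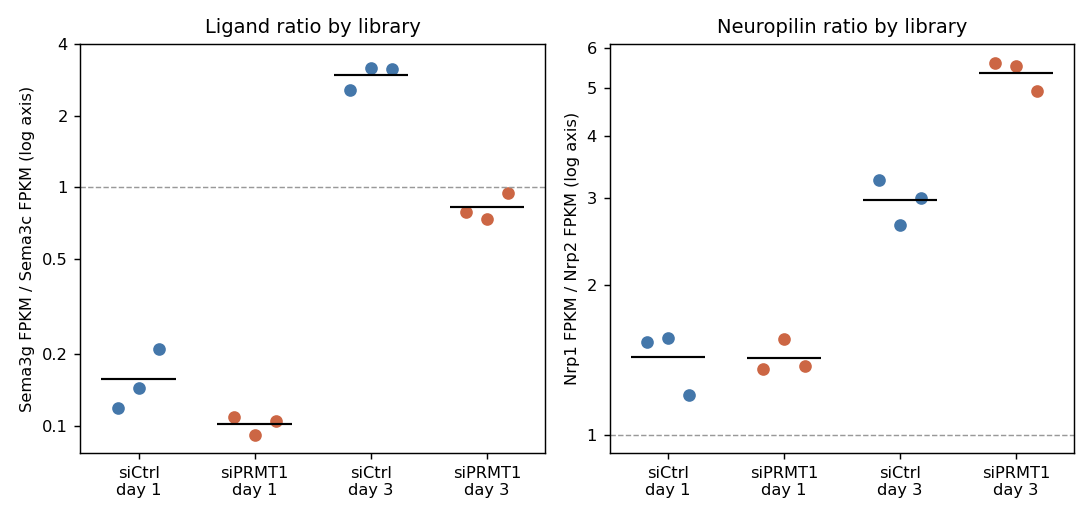
Ratio of Sema3g to Sema3c FPKM (left) and of Nrp1 to Nrp2 FPKM (right) in each library, on log axes. Points are libraries, bars are means and the dashed line marks a ratio of 1. At day 3 the ligand ratio was 2.57 or more in siCtrl and 0.950 or less in siPRMT1, and the neuropilin ratio was 3.25 or less in siCtrl and 4.93 or more in siPRMT1.

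Plxnd1, the signalling subunit, had the highest level of the 10 genes in all 4 conditions. It stood at 75.23, 79.77 and 104.28 FPKM in siCtrl and at 89.90, 84.26 and 92.52 FPKM in siPRMT1 at day 1. In the libraries of day 3 it stood at 53.21, 60.59 and 58.39 FPKM in siCtrl and at 47.82, 59.67 and 63.19 FPKM in siPRMT1. The siRNA groups overlapped at both days, with log2 fold changes of -0.01 (SE 0.11) and -0.02 (SE 0.09), and the first became 0.14 (SE 0.05) without siCtrl replicate 3, which held the highest level. Over time Plxnd1 changed by -0.66 in both siCtrl (SE 0.12) and siPRMT1 (SE 0.08) on the log2 scale, and by -0.51 in siCtrl without siCtrl replicate 3 of day 1. Plxnd1 made up 39.8% ± 1.06 of the summed FPKM of all 9 plexins in siCtrl and 38.6% ± 1.31 in siPRMT1 at day 1, and 35.1% ± 0.98 and 31.4% ± 1.05 at day 3 (SD, n = 3).

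The order of the levels was read per length, on the FPKM scale. In siCtrl at day 1 Plxnd1 was followed by Nrp1, Sema3c and Nrp2, whose neighbouring ranges overlapped, then by Sema3f, Sema3a and Sema3g. Sema3f was apart from Sema3a, and Sema3a and Sema3g overlapped. In siPRMT1 at day 1 Sema3c and Nrp1 overlapped in the places after Plxnd1. In siCtrl at day 3 Sema3g had moved up beside Nrp1, with overlapping ranges, and Nrp2 and Sema3c shared the next level. In siPRMT1 at day 3 Nrp1, Sema3c and Sema3g followed Plxnd1 with no overlap between neighbours, and Nrp2 and Sema3f overlapped.

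Set beside all genes, the members past the study's thresholds (adjusted p under 0.05, log2 fold change beyond 0.5 in either direction) were counted as a description, and nothing is read from the counts. At day 1, 0 of the 8 fitted members were past them in edgeR and in DESeq2, where 1.95% of all genes tested were higher and 1.61% lower in siPRMT1. At an unadjusted p under 0.05 in edgeR it was 2 of the 8, beside 24.6% of all genes. At day 3, Sema3a, Sema3c and Nrp1 were past them on the higher side and Sema3g on the lower side, where 2.84% of genes were higher and 3.80% lower. Sema3g stood far beyond the fold threshold, and the other 3 lay between 0.52 and 0.57. Leaving out siCtrl replicate 3 of day 3 left only Sema3g of these 4 past both thresholds, leaving out siCtrl replicate 2 left Sema3a and Sema3g, and leaving out siPRMT1 replicate 2 left Nrp1 and Sema3g. From day 1 to day 3 in siCtrl 2 members were past the thresholds on the higher and 5 on the lower side (6 in all without siCtrl replicate 3 of day 1, where Sema3f drops out), where 22.7% of genes were higher and 20.4% lower. In siPRMT1 it was 2 and 4, where 19.0% of genes were higher and 17.4% lower. For the difference between the effects of the 2 days it was Nrp1 higher and Sema3g lower, where 4.77% of genes were higher and 3.47% lower. Nrp1 fell under the fold or the adjusted p threshold there when any 1 of 5 libraries was left out: siCtrl replicate 1 or 2 or siPRMT1 replicate 3 of day 1, or siCtrl replicate 2 or 3 of day 3. In CPM after TMM scaling (counts over the scaled library total), the siRNA groups did not overlap for 4 of 8 fitted members at day 1 (31.3% of genes tested) and for 5 of 8 at day 3 (34.9% of genes tested). The comparisons over time and over siRNA share their libraries.

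**Figure D4:**
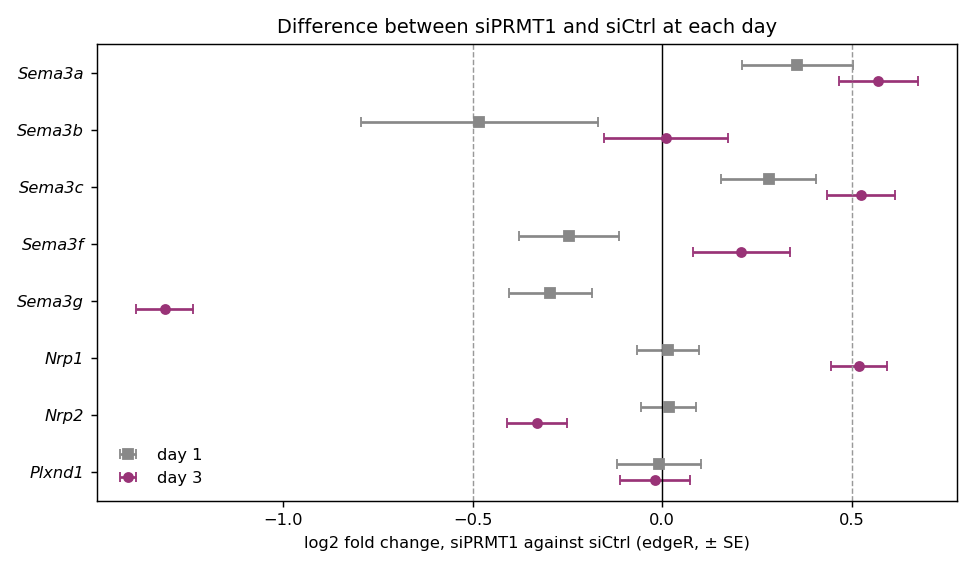
Log2 fold change of siPRMT1 against siCtrl for the 8 fitted members at day 1 (grey squares) and day 3 (purple circles), with standard errors from edgeR. Dashed lines mark an absolute value of 0.5. Sema3g was at -1.31 at day 3, Sema3a, Sema3c and Nrp1 lay between 0.52 and 0.57, and Plxnd1 stayed near 0 at both days.

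Other parts of the pathway were read from a list of 71 genes outside the 10, and these were tested. This list too was chosen with earlier results of these data known, so its calls and p-values carry that limit. At day 1, 1 of the 55 genes fitted rose in siPRMT1 and 0 fell, with a median log2 fold change of -0.04 against 0.01 over all genes. At an unadjusted p under 0.05 there were 19 of 55, beside 24.6% of all genes. At day 3, 1 of 56 rose and 4 fell, with a median of 0.01 over the list and 0.01 over all genes. With DESeq2 1 rose and 1 fell at day 1. The day 1 share is close to that over all genes (1.95% higher, 1.61% lower), and at day 3 the 4 of 56 that fell stand beside 3.80%. The difference between the days passed the test for 9 of 57 genes, 7 upward and 2 downward, beside 4.77% and 3.47% of all genes. From day 1 to day 3, 9 of 55 rose and 18 fell in siCtrl, beside 22.7% and 20.4% of all genes. In siPRMT1 8 of 55 rose and 16 fell, beside 19.0% and 17.4% of all genes. The list medians were -0.23 and -0.11, beside medians of 0.00 over all genes.

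None of the 4 A-type plexins, the usual partners of neuropilins, passed the test in either knockdown comparison. Plxna1 was the most abundant of them, at 30.9 ± 4.54 FPKM in siCtrl and 37.8 ± 2.15 FPKM in siPRMT1 at day 1 and 42.1 ± 0.23 and 48.1 ± 5.54 FPKM at day 3 (SD, n = 3). Its edgeR adjusted p was 0.178 at day 1 and 0.121 at day 3. Of the other plexins Plxnb2, a receptor for class 4 semaphorins, was the most abundant and did not pass the fold threshold (log2 fold change 0.28 at day 3, SE 0.08, edgeR adjusted p = 0.0231). Furin, the protease that cuts semaphorin precursors, did not pass in siPRMT1 at either day (adjusted p 0.728 and 0.362). It fell from day 1 to day 3 by 0.73 on the log2 scale in siCtrl and by 0.94 in siPRMT1 (edgeR adjusted p = 0.00145 and 2.91e-07).

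Of the VEGF ligands and receptors that share the neuropilins, 1 of 5 fitted rose in siPRMT1 at day 3 and 0 fell, beside 2.84% and 3.80% of all genes. At an unadjusted p under 0.05 there were 3 of the 5, beside 31.3% of all genes. The effect differed between the days for 2 of 6, both upward, beside 4.77% of all genes higher and 3.47% lower. Vegfc, a lymphatic growth factor that binds neuropilin 2, stood at 37.59, 37.45 and 41.85 FPKM in siCtrl and at 38.79, 37.32 and 38.61 FPKM in siPRMT1 at day 1. Vegfc at day 3 stood at 11.46, 9.53 and 10.53 FPKM in siCtrl and at 17.10, 17.11 and 16.43 FPKM in siPRMT1. It rose in siPRMT1 at day 3 (log2 fold change 0.67, SE 0.09, edgeR adjusted p = 8.50e-05) and not at day 1 (-0.08, adjusted p = 0.563), and the difference between the days was 0.77 (adjusted p = 0.000533). Vegfd, its close relative, stood at 25.06, 26.48 and 29.42 FPKM in siCtrl and at 20.33, 20.13 and 20.68 FPKM in siPRMT1 at day 1. Vegfd at day 3 stood at 11.07, 10.21 and 9.10 FPKM in siCtrl and at 14.23, 14.53 and 14.13 FPKM in siPRMT1. The groups of Vegfd did not overlap at either day and lay in opposite orders, and the difference between the days was 0.97 (SE 0.12, edgeR adjusted p = 0.000137), although neither day alone passed the fold threshold. Vegfa, the most abundant VEGF, was at 48.07, 49.26 and 53.46 FPKM in siCtrl and at 39.61, 40.68 and 41.24 FPKM in siPRMT1 at day 3, a log2 fold change of -0.32 that did not pass the fold threshold. The VEGF receptor Kdr had at most 2 counts in any library.

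Among the 27 cytoplasmic effectors fitted, 1 rose and 0 fell at day 1, beside 1.95% and 1.61% of all genes. At day 3, 0 rose and 2 fell, beside 2.84% and 3.80% of all genes. Limk1, the kinase that phosphorylates cofilin, stood at 60.67, 66.39 and 57.65 FPKM in siCtrl and at 34.93, 37.56 and 40.28 FPKM in siPRMT1 at day 3. It fell by 0.72 on the log2 scale (SE 0.08, edgeR adjusted p = 1.96e-05), while at day 1 its value was -0.05 (adjusted p = 0.799). Its target Cfl1, with the highest level of the list, was at 680.17 to 797.64 FPKM in siCtrl and 729.20 to 762.61 FPKM in siPRMT1 at day 3 (log2 fold change 0.01, SE 0.07). Rnd1, a small GTPase that binds plexins, stood at 2.43, 3.14 and 3.14 FPKM in siCtrl and at 4.03, 4.21 and 5.0 FPKM in siPRMT1 at day 1, then at 4.68, 4.74 and 5.19 FPKM in siCtrl and at 2.99, 3.62 and 3.64 FPKM in siPRMT1 at day 3. It was thus higher in siPRMT1 at day 1 (0.57, SE 0.14, edgeR adjusted p = 0.0475) and lower at day 3 (-0.52, SE 0.11, adjusted p = 0.00571), with a difference between the days of -1.07 (adjusted p = 0.00209). The day 1 call of Rnd1 was lost when any of the libraries but siCtrl replicate 3 was left out (0.44 to 0.63), and the day 3 call without siCtrl replicate 3 (-0.47) or siPRMT1 replicate 1 (-0.44). Dpysl3, a collapsin response mediator protein, was at 31.87, 31.61 and 34.81 FPKM in siCtrl and at 26.04, 27.53 and 26.76 FPKM in siPRMT1 at day 1. Dpysl3 at day 3 was at 11.61, 11.73 and 10.92 FPKM in siCtrl and at 15.34, 16.47 and 16.60 FPKM in siPRMT1. The order of the siRNA groups of Dpysl3 turned between the days without overlap, a difference of 0.85 (SE 0.09, edgeR adjusted p = 5.56e-05). The GTPases Rap1a, Rap1b and Rnd3 also had a higher effect at day 3 than at day 1, by 0.68, 0.74 and 0.59 (adjusted p 0.0242, 0.00377 and 0.0204). Without siCtrl replicate 1 or 2 or siPRMT1 replicate 1 of day 1, or siCtrl replicate 2 or siPRMT1 replicate 1 of day 3, both Rap1a (0.57 to 0.67) and Rnd3 (0.48 to 0.57) lost that call, and Rap1a also did without siPRMT1 replicate 3 of day 1 (0.61).

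Among the surface partners Itgb1, the beta 1 integrin that plexin signalling can inactivate, had an effect 0.51 higher at day 3 than at day 1 (SE 0.12, edgeR adjusted p = 0.0107). It lost that call with DESeq2 (0.497), with RLE scaling (0.497), with at least 10 counts required in every library (0.493), and without siCtrl replicate 1 (0.488) or 2 (0.455) or siPRMT1 replicate 3 (0.478) of day 1, or siCtrl replicate 2 (0.487) or 3 (0.470) or siPRMT1 replicate 1 (0.411) of day 3. Nrcam, an adhesion molecule that binds neuropilin 2, fell in siPRMT1 at day 3 by 1.54 on the log2 scale (SE 0.36, edgeR adjusted p = 0.00849) from 11 to 22 counts a library in siCtrl to 4 to 10 in siPRMT1. Of the other semaphorins Sema4a, an immune semaphorin, fell by 0.81 (SE 0.23, edgeR adjusted p = 0.0236) from 25 to 37 counts to 20 to 22. Both rest on few counts: DESeq2 gave Sema4a an adjusted p of 0.0992 and Nrcam none. The call of Sema4a was lost without siCtrl replicate 2 (-0.75) or 3 (-0.79) or siPRMT1 replicate 2 (-0.73) of day 3. Sema6d, the most abundant semaphorin of the list, was at 5.63 to 6.25 FPKM in siPRMT1 and 6.14 to 6.81 FPKM in siCtrl at day 3 and was not called.

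**Figure D5:**
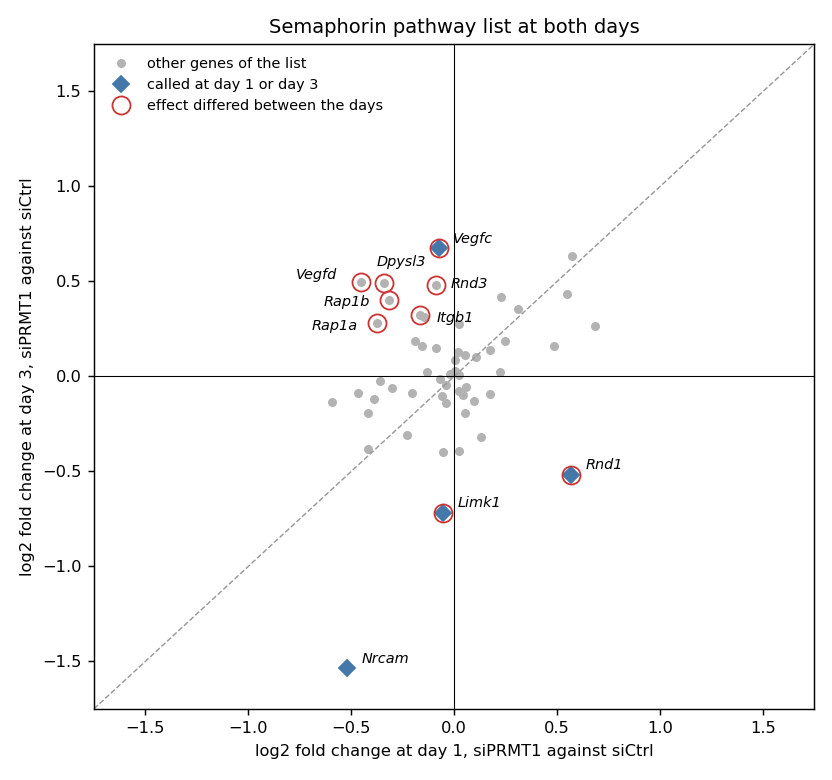
Log2 fold change of siPRMT1 against siCtrl at day 1 (horizontal) and day 3 (vertical) for the 54 genes of the pathway list fitted at both days. Blue diamonds mark genes called at day 1 or day 3, red rings mark genes whose effect differed between the days, and the dashed line marks equal effects. Vegfc (0.67) was the gene called higher at day 3, while Limk1 (-0.72), Rnd1 (-0.52) and Nrcam (-1.54) were called lower.

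Over the 12 libraries, the genes with the profile nearest to each member were found by the root mean square (RMS) difference of centred log2 CPM among 14612 genes. All libraries of a condition share that condition, so a small difference mostly says that the 4 condition means run in parallel. Nearest to Sema3g was Scd1, the desaturase that makes monounsaturated fatty acids (RMS 0.12, beside a spread of Sema3g itself of 1.12), at mean FPKM of 82.4, 70.8, 463.8 and 215.9 in siCtrl and siPRMT1 at day 1 and siCtrl and siPRMT1 at day 3. Selenbp1, a selenium binding protein, came next (RMS 0.16). Nearest to Sema3c were Dclk1, a microtubule-linked kinase (RMS 0.11), and the noncoding RNA Eldr (RMS 0.11), and nearest to Sema3a were the protease Adamts6 (RMS 0.12) and the alcohol dehydrogenase Adh7 (RMS 0.14). Nrp1 lay nearest to Pld1, a phospholipase D (RMS 0.07, spread 0.20), and Fam212b (RMS 0.08). Nrp2 lay nearest to the mitotic genes Troap and Cdca2 (RMS 0.12 and 0.13, spread 0.80), and Troap went from 52.5 and 58.4 FPKM at day 1 to 18.7 and 15.1 FPKM at day 3. Plxnd1 lay nearest to the matrix glycoprotein Emilin1 and to Abhd8 (RMS 0.05 and 0.06), Sema3f to Mxra8 and Gm39635 (RMS 0.10 and 0.11) and Sema3b to Mtss1l and Adamts15 (both RMS 0.16).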

How the data were processed

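RNA sequencing covered 12 libraries of 3T3-L1 cells, 3 in each of 4 conditions taken from the labels. Per the labels, the authors used cutadapt 1.11, HISAT2 2.1.0 and RSEM 1.2.6 with mm10. The counting tool and strand setting are not given in the sources used here. The deposited counts are whole numbers per gene without normalization. The deposited FPKM values follow from them, as recomputed to within 0.005.

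Counts were fitted with edgeR 4.0.16 (R 4.3.3, filterByExpr, TMM, quasi-likelihood test), each comparison on its own 6 libraries and the difference between days on all 12, after a test on simulated data. P-values were adjusted by Benjamini-Hochberg over all genes tested, and calls required an adjusted p under 0.05 with a log2 fold change beyond 0.5 in either direction. Alternatives used DESeq2 1.42.0, limma 3.58.1 on log2(FPKM + 1), other filters and scalings, a replicate block, and leaving out each library.

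The members and lists were chosen with earlier results of these data known. Named are all members, Prmt1, pathway genes called in a knockdown comparison or between days, the most abundant gene of each sublist and the 2 nearest profiles of each member. Kdr, Cdh5, Pecam1, Tie1, Ptprc, Kcnj8, Fabp4 and Dlk1 were named after their values were seen.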

Additional observations from a re-analysis of the deposited data

Results flagged for a closer look

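The effect of the knockdown differed between the days for 2 members and 9 genes of the pathway list, by the interaction of siRNA and day over the 12 libraries. For the members this describes values that chose them. The effect at day 3 minus that at day 1 was -0.9996 for Sema3g and 0.52 for Nrp1 on the log2 scale. In the list it was 0.85 for Dpysl3, 0.97 for Vegfd, 0.77 for Vegfc, 0.74 for Rap1b, 0.68 for Rap1a, 0.59 for Rnd3 and 0.51 for Itgb1. It was -1.07 for Rnd1 and -0.64 for Limk1. At this threshold 4.77% of all genes were higher and 3.47% lower.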

How the results depend on the processing

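No called fold change of the members, or of the pathway genes called for the knockdown or between its days, changed sign under the alternatives run, and fold changes of pathway genes over time were not rerun. The pathway list gave 1 call at day 1, 2 with DESeq2, without a filter on low counts or with all 12 libraries in 1 model, 3 with the replicate block and 5 without a threshold on the fold change. At day 3 it gave 5 calls, 3 with DESeq2 and 15 without the fold threshold. From day 1 to day 3 in siPRMT1 it gave 24, and 39 without the fold threshold. Leaving out 1 library gave 0 to 4 pathway calls at day 1, 3 to 8 at day 3 and 6 to 11 for the difference between days, and 1 to 4 members at day 3 and 1 to 2 for that difference. At day 1 the 4 pathway calls came without siCtrl replicate 3, and 0 came without siCtrl replicate 2 or any siPRMT1 library. At day 3 the 8 came without siCtrl replicate 1 and the 3 without siCtrl replicate 3. The cause was not tested. Whether replicate numbers pair the samples could not be decided from so few libraries. The correlation of same-numbered deviations ran from -0.10 to 0.36 at day 1 and at day 3 from -0.10 to 0.35. That of differently numbered ones ran from -0.44 to 0.39 at day 1 and at day 3 from -0.43 to 0.37. The replicate block left 0 and 4 members at day 1 and day 3 and 2 for the difference between days. Low counts limit Sema3b, Sema3d, Sema3e, Nrcam and Sema4a.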
